A study of Homo sapiens with 2 samples.

Results

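The 10 genes described here are the end of the Hippo signalling pathway and some of its regulators: the coactivators YAP1 and WWTR1 (whose protein is TAZ), their DNA-binding partners TEAD1, TEAD2, TEAD3 and TEAD4, the kinases LATS1 and LATS2, and the upstream regulators PTPN14 and NF2. They were chosen by gene symbol from pathway knowledge. All 10 were found among the 26255 symbols measured. RNA was sequenced from OVSAHO, an established cell line from a human serous ovarian cancer, in 2 libraries, 1 per group. In the perturbed culture (OVSAHO-A2-siA4) the series text gives SMARCA2 as upregulated and SMARCA4 as downregulated, and its genotype label reads SMARCA2 stable with SMARCA4 knockdown. The control culture (OVSAHO-Ctrl-siNC) is labelled WT. Both cultures were in carboplatin, a platinum drug that crosslinks DNA, at 25 µM for 2 days, so no untreated culture is compared. SMARCA2 and SMARCA4 are the alternative ATPases of the SWI/SNF chromatin remodellers. The labels give the number of clones behind neither culture.

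Hippo signalling restrains growth. In the active pathway the MST kinases activate LATS1 and LATS2, and the LATS kinases phosphorylate YAP1 and TAZ, which are then held in the cytoplasm or degraded. When the kinases are quiet, YAP1 and TAZ enter the nucleus and bind TEAD factors, which carry them to growth and matrix genes. NF2, also called merlin, brings LATS kinases to the membrane, and PTPN14 is a phosphatase that binds YAP1 and holds it back. LATS2 and PTPN14 are themselves known YAP target genes, so they belong both to the brake and to its output. Most of this control acts on protein phosphorylation and location, which RNA levels do not report.

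Values are FPKM, fragments per kilobase of transcript scaled to sequencing depth, as deposited. With 1 library per group there is no replicate check, no p-value and no standard error: every difference compares a pair of libraries. The log2 ratio sets FPKM + 1 of the perturbed library against FPKM + 1 of the control. A gene with 1 FPKM or more in either library is called higher where that ratio reaches 1, and lower where it reaches -1. Values given in pairs name the perturbed library before the control. Folds are plain FPKM ratios. The 95% intervals are exact binomial (Clopper-Pearson) intervals on approximate fragment numbers and cover counting error only. Those numbers came from the transcript length and an estimated depth of 8850000 fragments in the perturbed and 9050000 in the control library.

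By that rule 3 of the 10 genes were higher in the perturbed library, TEAD1, PTPN14 and LATS2, and none was lower. TEAD1 and LATS2 were below 1 FPKM in the control (0.575 and 0.951 FPKM) and passed the filter only through the perturbed library. With 1 FPKM required in both libraries, 8 of the 10 were tested and PTPN14 alone was higher, beside 5.45% of 10216 genes. Over all 11785 genes that reached 1 FPKM in a library, 7.85% were higher and 7.61% were lower by the same rule. The log2 ratio was above 0 for 9 of the 10, and LATS1 was the exception. The median over the 10 genes was 0.81, against -0.06 over all genes, of which 46.5% lay above 0. In a bulk library, fewer cells that express a gene and less RNA per cell cannot be told apart. The counting interval of the fold excluded 1 for 8 genes, all but TEAD3 and LATS1. The share of all genes with such an interval was not computed, so this count cannot be called particular to the 10. The count depends on the scale: 5 of the 10 were higher with each library scaled to the same sum, YAP1 and TEAD4 joining, and none with a pseudocount of 5 FPKM, while 9 lay above 0 under each scaling tried. Over all genes tested, 10.5% were higher with that scaling and 1.86% with that pseudocount. Among all genes past the rule, 50.8% were on the higher side, and 64.7% after that scaling.

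**Figure D1:**
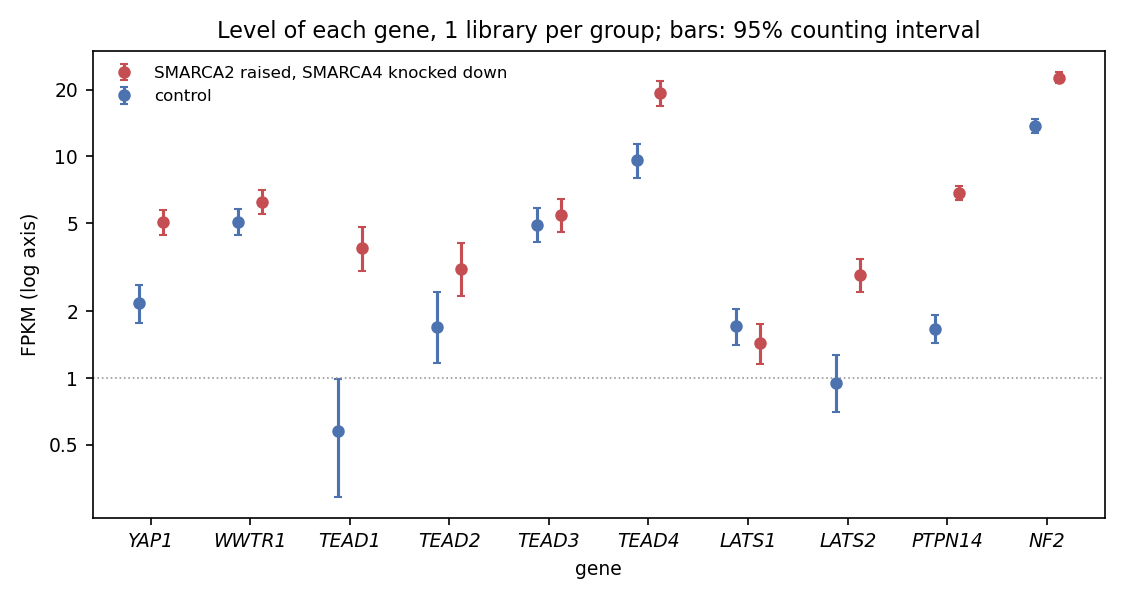
FPKM on a log axis for each gene in the perturbed library (red) and the control library (blue), 1 library per group, with 95% Poisson counting intervals as bars. TEAD1, PTPN14 and LATS2 lie furthest above their control values, and LATS1 alone lies below its control value, with overlapping bars.

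The check of the labels came out as the series text states. SMARCA2 measured 2.60 FPKM against 0.205, 12.7-fold higher (7.0 to 28.4). SMARCA4 was at 4.49 and 27.9 FPKM, 6.21-fold lower (5.39 to 7.19). Of 10 markers of serous ovarian epithelium, 9 reached 1 FPKM in a library, PAX8 at 42.1 and 21.9 FPKM among them. WT1 was higher by the rule, KRT7 was lower at 119 and 540 FPKM, and MUC16 was listed at 0 and 0.0608 FPKM. None of 7 fibroblast markers reached 1 FPKM, with a summed level of 0.134 and 0.154 FPKM, and none of 4 endothelial markers, with 0.430 and 0.367 FPKM. The leukocyte markers PTPRC and CD3E were at 0 in both libraries, and CD14 was at 0.170 and 0.167 FPKM. Among 3 mesothelial markers, UPK3B was at 85.9 and 27.1 FPKM, LRRN4 at 2.83 and 2.37, and CALB2 at 0 and 0.0940. The part of UPK3B-expressing cells in the ratios below was not tested.

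The coactivators differed from each other. YAP1 measured 5.05 FPKM against 2.18 in the control, 2.32-fold higher (1.84 to 2.98). With the pseudocount its log2 ratio was 0.93, just short of the rule. WWTR1 was at 6.25 and 5.06 FPKM, 1.23-fold higher (1.03 to 1.48), with a log2 ratio of 0.26. WWTR1 was the more abundant of the pair in each library, and YAP1 made up 44.7% of their summed FPKM in the perturbed library against 30.1% in the control. The YAP1 fold was 1.88 times the WWTR1 fold (1.40 to 2.56), a ratio that does not depend on how the libraries are scaled. An antisense gene, WWTR1-AS1, overlaps WWTR1 and was at 0.226 and 0.959 FPKM. The cDNA kit does not mark strand, so reads of that pair cannot be told apart.

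The TEAD factors, through which both coactivators reach DNA, ranged from TEAD1, at a log2 ratio of 1.62, to TEAD3, at 0.12. With a pseudocount of 5 FPKM the TEAD1 ratio was 0.67, below that of TEAD4 at 0.73. TEAD1 measured 3.86 FPKM against 0.575 in the control, 6.71-fold higher (3.70 to 13.7). About 80.0 fragments lay behind the perturbed value and 12.2 behind the control value, with a transcript of 2544 bases. With the longest protein-coding transcript these would be 283 and 43.1 fragments, and the interval 4.87 to 9.51. TEAD4 was at 19.3 and 9.59 FPKM, 2.01-fold higher (1.62 to 2.51). Its log2 ratio of 0.94 is below the rule because of the pseudocount. TEAD2 was at 3.10 and 1.71 FPKM, 1.82-fold higher (1.15 to 2.92). TEAD3 was at 5.42 and 4.91 FPKM, 1.10-fold higher (0.859 to 1.42), an interval that holds 1 and has an upper bound well below the TEAD1 fold.

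TEAD4 was the main TEAD transcript in both libraries, with 60.9% of the summed TEAD FPKM in the perturbed library and 57.1% in the control. The TEAD1 share was 12.2% against 3.43%, and the TEAD3 share was 17.1% against 29.2%. TEAD2 took 9.81% and 10.2%. In the control TEAD1 was the least abundant TEAD, below TEAD2, and in the perturbed library it stood above TEAD2, at 1.24 times its level against 0.337 times. Summed over the family, the level was 31.7 and 16.8 FPKM, 1.89-fold higher, and TEAD4 alone accounted for 9.68 FPKM of that difference.

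Within families, 8 pairs of folds were compared, and 6 counting intervals excluded 1. The TEAD1 fold was 6.07 times the TEAD3 fold (3.14 to 13), 3.69 times the TEAD2 fold (1.69 to 8.71) and 3.34 times the TEAD4 fold (1.75 to 7.07). The TEAD4 fold was 1.82 times the TEAD3 fold (1.30 to 2.55). For TEAD2 over TEAD3 the value was 1.65 (0.966 to 2.82), and for TEAD4 over TEAD2 it was 1.11 (0.656 to 1.85). Those last intervals hold 1 and also values well above it, so the counts do not show equal folds.

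**Figure D2:**
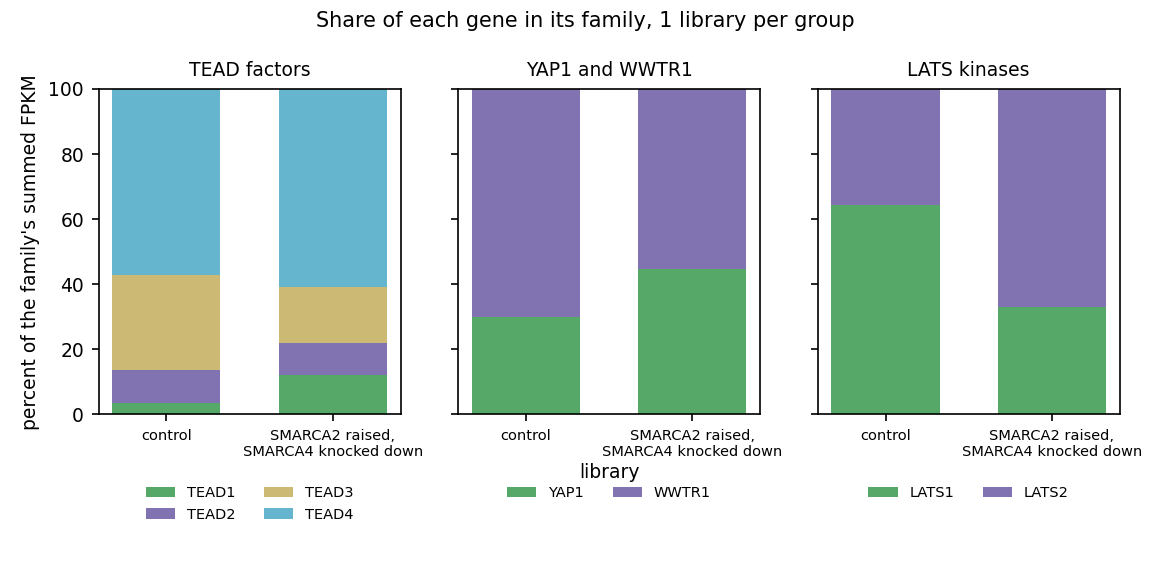
Percent of the summed FPKM of each family (vertical axis, from 0 to 100) taken by each of its genes in the control and the perturbed library, 1 library per group. The TEAD1 share is 3.43% in the control and 12.2% in the perturbed library, and the LATS2 share is 35.7% and 67.0%.

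The LATS kinases, which phosphorylate YAP1 and TAZ, exchanged places. LATS2 measured 2.92 FPKM against 0.951 in the control, 3.07-fold higher (2.17 to 4.35), with a log2 ratio of 1.01. LATS1 was at 1.43 and 1.71 FPKM, 1.19-fold lower (0.895 to 1.58), with a log2 ratio of -0.15. The LATS1 interval holds 1, so no difference in LATS1 was detectable at this depth. LATS2 made up 67.0% of the summed LATS FPKM in the perturbed library and 35.7% in the control. The LATS2 fold was 3.66 times the LATS1 fold (2.30 to 5.72). The LATS sum was 4.35 FPKM against 2.66 FPKM, the lowest sum of the 3 families in each library.

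PTPN14, the YAP1-binding phosphatase, measured 6.86 FPKM against 1.67 in the control, 4.11-fold higher (3.51 to 4.84), with a log2 ratio of 1.56. About 776 and 193 fragments lay behind these values, many more than behind TEAD1. NF2, the merlin gene, was at 22.7 and 13.7 FPKM, 1.66-fold higher (1.51 to 1.82), with a log2 ratio of 0.69. Its interval is the narrowest of the 10 and lies wholly below a 2-fold difference. LATS2, at a log2 ratio of 1.01, was the gene just inside the rule, and TEAD4 and YAP1, at 0.94 and 0.93, were those just outside it.

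NF2 was the most abundant of the 10 in each library, above 69.2% of the genes at 1 FPKM or more in the perturbed library and 55% in the control. TEAD4 was next in each. In the perturbed library PTPN14, WWTR1, TEAD3, YAP1, TEAD1, TEAD2 and LATS2 followed, each overlapping its neighbour in its 95% Poisson counting interval, and LATS1 came last, above 7.06% of those genes. In the control the order after TEAD4 was WWTR1, TEAD3, YAP1, LATS1, TEAD2, PTPN14, LATS2 and TEAD1. Neighbours overlapped in 7 of 9 pairs in the perturbed library and in 5 of 9 in the control, so much of the order is not resolved. PTPN14 came after TEAD2 in the control and next after TEAD4 in the perturbed library.

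**Figure D3:**
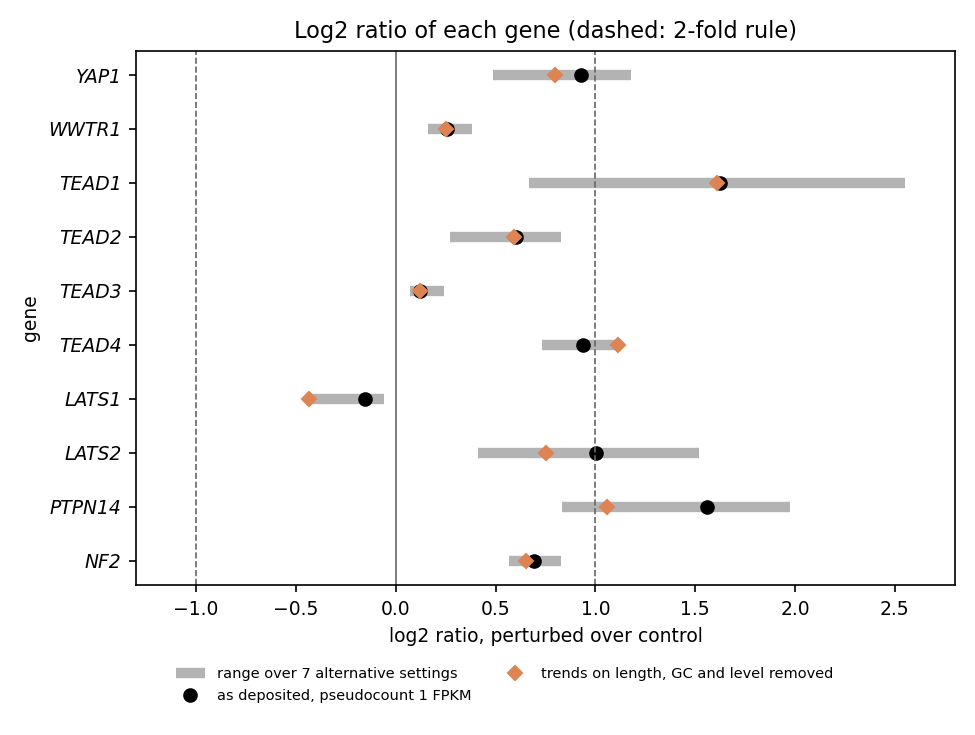
Log2 ratio of FPKM + 1, perturbed over control, for each gene as deposited (black circle) and with trends on length, GC and level taken out (orange diamond), with the range over 7 alternative settings as a grey bar and the 2-fold rule as dashed lines. All grey bars but that of LATS1 lie above 0, and those of TEAD1, PTPN14, LATS2, YAP1 and TEAD4 cross the upper dashed line.

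Ratios were related to transcript length across all genes, and these genes differ in length. Among the 618 genes with a transcript of 8000 bases or more, 18.3% were higher by the rule and the median log2 ratio was 0.42. In the class of 2000 to 4000 bases 5.52% were higher and the median was -0.17, and in that of 4000 to 6000 bases 8.21% were higher and the median was 0.02. The PTPN14 transcript has 12985 bases, that of LATS2 5511, that of YAP1 5398 and that of TEAD4 1690. The TEAD1 transcript used has 2544 bases, and the longest annotated protein-coding TEAD1 transcript has 8477. LATS1, at 7517 bases, was in a class with a median of 0.25 and itself had a ratio of -0.15. After trends on length, GC content and level were removed over all genes, TEAD1 (1.61), TEAD4 (1.12) and PTPN14 (1.06) were past the rule, and LATS2 was within it at 0.75. None of the 10 was then lower. In that fit 6.60% of 10973 genes were higher and 6.36% were lower, and the median of the 10 genes was 0.70. The PTPN14 ratio moved most, from 1.56 to 1.06. With the longest protein-coding transcripts, a setting chosen after seeing the data, the TEAD1 ratio was 1.30 and the TEAD4 ratio 1.12. With trends removed on the transcripts used, the difference in log2 ratio within families rose for LATS2 over LATS1 (1.16 to 1.19). It also rose for TEAD4 over TEAD3 (0.817 to 0.996) and TEAD4 over TEAD2 (0.337 to 0.525). The difference fell for YAP1 over WWTR1 (0.672 to 0.544) and TEAD1 over TEAD4 (0.688 to 0.491). Smaller falls were those of TEAD1 over TEAD2 (1.025 to 1.016), TEAD1 over TEAD3 (1.505 to 1.487) and TEAD2 over TEAD3 (0.480 to 0.471).

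**Figure D4:**
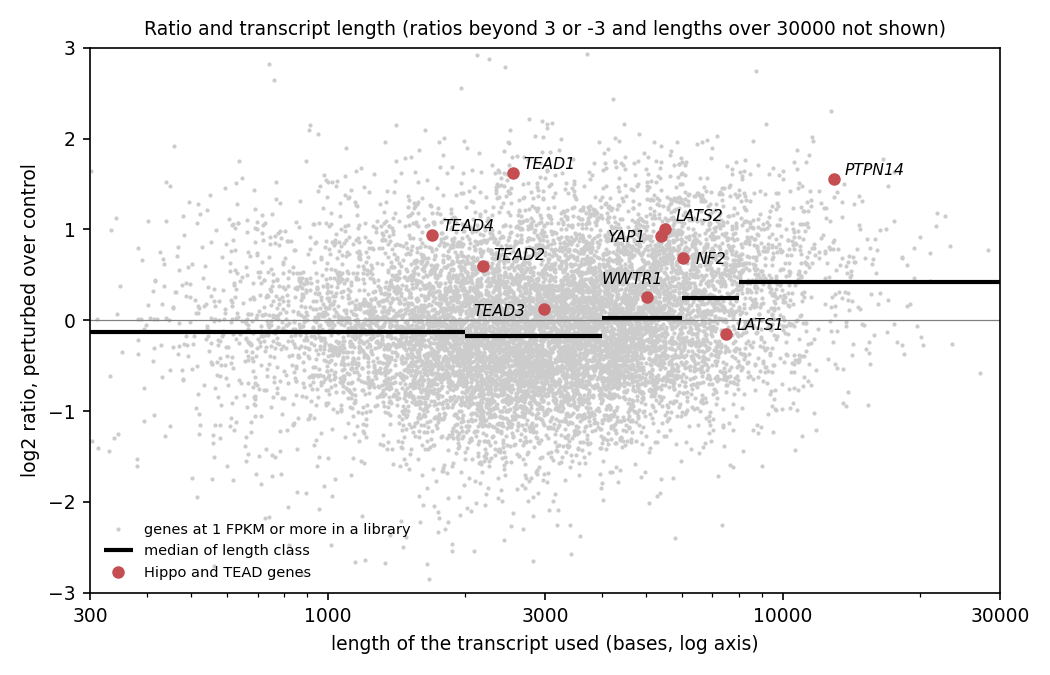
Log2 ratio of FPKM + 1, perturbed over control, against the length of the transcript used (log axis), for genes at 1 FPKM or more in a library (grey) and the 10 Hippo and TEAD genes (red), with the median of each length class as a black bar. The class median is 0.42 at 8000 bases or more and -0.17 at 2000 to 4000 bases, and 9 of the 10 red points lie above the bar of their class.

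Promoter sequences were examined because PTPN14 and LATS2 were both higher and are known targets of TEAD factors. RefSeq promoter windows (GRCh38.p14, 250 bases before to 50 after a start site) were matched by symbol for 8 of the 10 genes, and no window of TEAD1 or TEAD4 was used. The core of the TEAD binding motif, CATTCC, was searched on both strands, where its reverse complement reads GGAATG. It was present in 3 of 12 windows, those of PTPN14, YAP1 and LATS2, each with 1 match. The same letters are in 14.0% of all 35116 RefSeq windows. In PTPN14 the match begins 200 bases before the start site, in YAP1 162 bases before it, and in LATS2 10 bases after it. The upstream bases of PTPN14 (chr1:214551603-214551852, minus strand) and YAP1 (chr11:102110197-102110446, plus strand) and 30 bases around the LATS2 match (chr13:21061560-21061589, minus strand) are shown 5′ to 3′ on the strand of the gene, with the motif in capitals.
PTPN14: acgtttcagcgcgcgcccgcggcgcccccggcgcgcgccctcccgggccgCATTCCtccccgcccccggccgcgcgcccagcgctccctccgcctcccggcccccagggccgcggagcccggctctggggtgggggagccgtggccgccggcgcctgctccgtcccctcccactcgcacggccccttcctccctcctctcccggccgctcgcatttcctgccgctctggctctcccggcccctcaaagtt
YAP1: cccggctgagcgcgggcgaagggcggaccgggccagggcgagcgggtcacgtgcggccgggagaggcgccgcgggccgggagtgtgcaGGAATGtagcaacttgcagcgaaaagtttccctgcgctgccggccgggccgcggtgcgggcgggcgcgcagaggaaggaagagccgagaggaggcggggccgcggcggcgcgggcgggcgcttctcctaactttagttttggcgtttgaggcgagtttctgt
LATS2: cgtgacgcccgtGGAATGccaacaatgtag

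A match is a description of letters and not a measured binding site. PTPN14 and LATS2 were higher by the rule, at 4.11-fold and 3.07-fold, and YAP1 was just short of it at 2.32-fold. The windows of NF2, WWTR1, TEAD2, TEAD3 and LATS1 do not hold these letters. Of 1309 genes at 1 FPKM or more with the motif in a window, 8.86% were higher and the median log2 ratio was -0.06. Of 7439 genes without it, 7.04% were higher and the median was -0.08.

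The rest of the pathway was read from a list of 59 other Hippo genes, of which 47 reached 1 FPKM in a library. By the rule 10 of those 47 were higher and 1 was lower, beside 7.85% and 7.61% of all genes. Their median log2 ratio was 0.46 with 31 above 0, against -0.06 and 46.5% over all genes. TAOK1, MAP4K3, WWC3, INADL, FAT1, STRN and STRN3 passed the filter only through the perturbed library, so they had to lie above 0. CRB3 and LLGL1 passed only through the control. With 1 FPKM required in both libraries the median was 0.20, against -0.10 over all genes. Of the higher genes, WWC3 and MAP4K3 were below 1 FPKM in the control (0.583 and 0.808 FPKM). They passed the filter only through the perturbed library, and 8 were higher with 1 FPKM required in both, beside 5.45% of all genes. With the trends removed, 5 were higher and none was lower, beside 6.60% and 6.36% of all genes. The median was then 0.26 over the 46 with a known transcript length. None of 7 core kinases and adaptors was past the rule. STK4, an MST kinase that activates LATS, was at 7.51 and 4.45 FPKM, and its relative STK3 at 2.88 and 1.82. The LATS adaptor MOB1A, the most abundant of that group, was at 38.8 and 68.6 FPKM. Among 8 kinases that act on LATS beside MST, MAP4K4 was at 5.36 and 1.47 FPKM, 3.65-fold higher (2.91 to 4.60), and MAP4K3 was 3.29-fold higher (2.2 to 5.21). TAOK2, the most abundant of them, was at 8.51 and 10.1 FPKM.

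Membrane scaffolds, which bring LATS and its regulators together, went in both directions. WWC3, a KIBRA-family scaffold, was at 5.18 and 0.583 FPKM, 8.89-fold higher (6.21 to 13.1), the largest log2 ratio of the 47 at 1.97. KIBRA itself, WWC1, was 3.44-fold higher (2.71 to 4.42). RASSF1, which binds the MST kinases, was the lower gene, at 57.8 and 129 FPKM, 2.24-fold lower (2.06 to 2.42). Among 8 polarity and protocadherin genes, the scaffolds DLG5 (12.4 and 3.90 FPKM, 3.18-fold) and SCRIB (2.70-fold) and FJX1 (2.54-fold) were higher. FAT1, the atypical cadherin upstream of the pathway, was at 2.08 and 0.538 FPKM, and its log2 ratio lay just below the rule. It has a transcript of 14786 bases, and its ratio was 0.29 with the trends removed.

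Of the LIM proteins that bind LATS, WTIP was 3.77-fold higher (3.26 to 4.37), and AJUBA, the most abundant, was at 15.1 and 22.1 FPKM. VGLL4, which competes with YAP1 for TEAD factors, was at 13.6 and 5.72 FPKM, 2.38-fold higher (1.99 to 2.84), and its ratio was 1.19 with the trends removed. Its relatives VGLL1, VGLL2 and VGLL3 were listed at 0 in both libraries. CSNK1E, a casein kinase that marks YAP1 for turnover, was 2.15-fold higher (1.8 to 2.56), and CSNK1D, the most abundant of that group, was at 39.4 and 37.3 FPKM. None of 10 STRIPAK phosphatase genes was past the rule, with PPP2CA at 132 and 208 FPKM. With the trends removed, WWC3, DLG5, MAP4K4, VGLL4 and CSNK1E were the 5 past the rule.

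**Figure D5:**
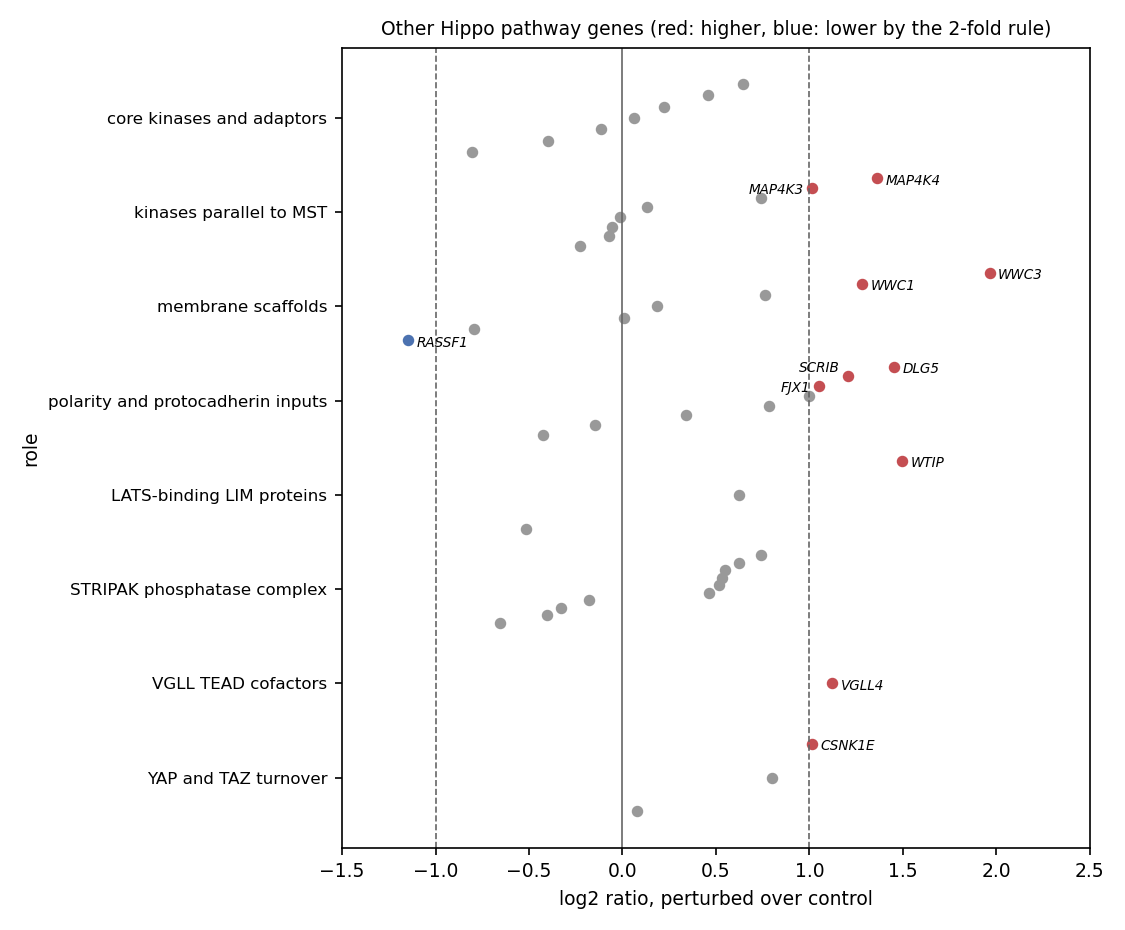
Log2 ratio of FPKM + 1, perturbed over control, for the 47 other Hippo pathway genes at 1 FPKM or more in a library, by role (vertical axis), 1 point per gene. The 10 higher genes (red) are spread over 6 roles, RASSF1 (blue) is lower, and the core kinases and the STRIPAK genes all lie between the dashed lines of the 2-fold rule.

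Genes that YAP1 and TAZ are known to switch on overlap these genes at PTPN14 and LATS2. Such targets also overlap the list of 59 other Hippo genes at AMOTL2 and FJX1, and FJX1 is counted as higher in both lists. Of 22 listed targets, 15 reached 1 FPKM, and 9 were higher and 1, ANKRD1 (1.15 and 3.61 FPKM), was lower, beside 7.85% and 7.61% of all genes. Of the higher targets, LATS2, ASAP1, CRIM1 and CCDC80 were below 1 FPKM in the control (0.951, 0.989, 0.694 and 0.508 FPKM). They passed the filter only through the library where they were high, so the count of higher targets leans on the filter. With 1 FPKM required in both libraries, the higher share over all genes was 5.45%. With the trends removed, 4 of the 15 were higher and 1 was lower, and their median log2 ratio was 0.75 in place of 1.05. Without PTPN14 and LATS2 the counts were 7 higher and 1 lower of 13, and 3 higher and 1 lower with the trends removed, where the median was 0.54 and the shares over all genes were 6.60% and 6.36%. Of the 15 targets, 10 had a log2 ratio above 0. Below their control values but within the rule were CYR61 (102 and 121 FPKM), GADD45A (93.3 and 164), AMOTL2 (35.2 and 61.8) and NUAK2 (18.4 and 25.6). Among the targets higher by the rule, CTGF was at 57.4 and 20.2 FPKM and IGFBP3 at 21.5 and 2.06 FPKM. The summed level of the 22 targets was 373 FPKM in the perturbed library and 415 in the control. That sum is weighted to the most abundant targets, CYR61 and GADD45A, both below their control values.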

How the data were processed

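Total RNA from 1 perturbed and 1 control culture of OVSAHO was made into cDNA with the SMART-Seq HT kit and into libraries with Nextera XT, per the labels' protocols. The authors deposited FPKM for 26255 gene symbols per library, per the file headers. Listed without roles in the submitters' processing notes are hg19, Cuffdiff 2.2.1, SAMtools 0.1.18, Bowtie2 2.2.8 and TopHat2 2.1.1. The gene annotation is not given in the sources used here, nor is scaling across libraries.

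FPKM were used as deposited. Depth was estimated with the window of 2% that held most values at 1 fragment, over genes with 1 RefSeq-matched GENCODE 29 transcript of at least 300 bases, after shortening by 200 bases. The authors' own transcript lengths may be others. WWTR1 took its longest protein-coding transcript. Trends were cubic polynomials (degree 3) on log2 length, GC content and log2 mean level. Calculations used Python 3.11.15, pandas 2.3.3, numpy 2.4.6 and scipy 1.17.1, and were tested on simulated data. Fragments are PCR copies without molecular identifiers, so intervals cover counting error only.

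The 10 genes and all gene lists were chosen with earlier results of these data known. Named genes were all 10, listed pathway genes past the rule, the most abundant gene of each role, SMARCA2 and SMARCA4. FAT1, STK3, STK4, UPK3B, the other markers given with values and the targets given with FPKM outside the 10 genes were chosen after their values were seen. Some listed genes are not reported here. Alternatives were the pseudocount (0.1 or 5 FPKM), scaling to 1000000, median centring, a trimmed mean (30% of ratios and 5% of levels), trend removal, the filter, the rule of size and the transcript length.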

Additional observations from a re-analysis of the deposited data

How the results depend on the processing

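The log2 ratio of each of the 10 genes kept its sign under all 7 alternatives for it. A change of pseudocount cannot alter a sign, so only the other alternatives bear on it. LATS1 was at -0.06 when centred on the median ratio. TEAD1 ranged from 0.67 to 2.55, PTPN14 from 0.83 to 1.98, LATS2 from 0.41 to 1.52 and YAP1 from 0.49 to 1.18. The number of the 10 genes that were higher was 0 with a pseudocount of 5 FPKM, 5 with libraries scaled to 1000000 and 5 when centred on the median ratio (YAP1 and TEAD4 joined), 1 with a filter of 5 FPKM in a library and 1 with 1 FPKM in both libraries (PTPN14 alone, as fewer genes were tested), 7 with a 1.5-fold rule and 0 with a 4-fold rule. In the same order, the shares higher over all genes tested were 1.86%, 10.5%, 9.83%, 6.96%, 5.45%, 19.1% and 0.602%. Scaling to 1000000 moved the share of higher genes among all genes past the rule from 50.8% to 64.7%, centring moved it to 62.9%, and a pseudocount of 5 FPKM to 36.6%. Libraries scaled to 1000000 had a median log2 ratio over all genes of 0.08 in place of -0.06.

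The number of other Hippo genes higher was 17 with a pseudocount of 0.1 FPKM, 0 with one of 5 FPKM and 5 with trends removed. It was 6 with trends removed on the longest protein-coding transcripts (an alternative chosen after seeing the data), 19 with a 1.5-fold rule and 0 with a 4-fold rule. In the same order, the shares higher over all genes tested were 13.8%, 1.86%, 6.60%, 6.66%, 19.1% and 0.602%. The number of other Hippo genes lower was 0 with trends removed on either set of transcripts, 4 with a 1.5-fold rule and 0 with a 4-fold rule. Their median was 0.18 with a pseudocount of 5 FPKM, 0.13 with no filter, 0.22 with a filter of 5 FPKM in a library and 0.20 with 1 FPKM in both libraries. Over all genes, 1630 were higher with a pseudocount of 0.1 FPKM; 219 were higher and 380 lower with one of 5 FPKM; 546 were higher with a filter of 5 FPKM in a library and 557 with 1 FPKM in both; 2253 and 2505 were higher and lower with a 1.5-fold rule, and 71 and 84 with a 4-fold rule. Where an alternative's own construction does not show the cause, the cause was not tested.

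With the shortest protein-coding transcripts, the fold intervals of WWTR1 (0.576 to 2.72) and TEAD2 (0.561 to 5.71) held 1, and that of TEAD1 widened to 1.28 to 403. With the longest, TEAD1 had an interval of 4.87 to 9.51. No paired analysis was possible because each group has 1 library. Depth limits TEAD1 and TEAD2: in the control TEAD1 had about 12.2 fragments and TEAD2 30.8 with the transcripts used, and 43.1 and 34.6 with the longest.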

Other observations

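Subunits of the STRIPAK phosphatase complex, which removes the activating phosphates of the MST kinases, went in both directions, with 6 of 10 above 0. These genes were picked out after their values were seen. Among the striatin scaffolds, STRN4 was at 16.2 FPKM perturbed and 9.25 control, 1.75-fold higher (1.51 to 2.03). STRN3 was at 1.32 and 0.586 FPKM, 2.25-fold higher (1.30 to 4.03), and STRN at 1.15 and 0.397 FPKM, 2.90-fold higher (1.85 to 4.53). The log2 ratios of STRN4, STRN3 and STRN were 0.74, 0.55 and 0.62. STRN3 and STRN passed the filter only through the perturbed library, so they had to lie above 0. With trends on length, GC content and level removed, the ratios were 0.68, 0.41 and 0.30 in that order. The STRN transcript has 8168 bases. The phosphatase scaffold PPP2R1A was at 181 and 131 FPKM, 1.38-fold higher (1.34 to 1.43). The catalytic subunit PPP2CA was at 132 and 208 FPKM, 1.58-fold lower (1.52 to 1.63), and the accessory subunit MOB4 (1.29-fold, 1.09 to 1.53) was also below its control value. None of these passed the 2-fold rule.

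The paralogs MOB1A and MOB1B, adaptors that activate LATS kinases, had unequal ratios. MOB1A was at 38.8 and 68.6 FPKM, 1.77-fold lower (1.66 to 1.88), and MOB1B was at 1.58 and 1.46 FPKM, a ratio of 1.08 whose interval holds 1 (0.791 to 1.44). With trends on length, GC content and level removed, the log2 ratio of MOB1A was -0.49 and that of MOB1B was 0.07. AMOTL2, a junction scaffold that binds YAP1, was at 35.2 and 61.8 FPKM, 1.76-fold lower (1.64 to 1.88), while its relative AMOTL1 was at 1.79 and 1.46 FPKM and AMOT at 1.02 and 1.01.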
